A study of Mus musculus with 6 samples.

Results

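The enzymes that break down tyrosine and tryptophan work mainly in hepatocytes of the liver. The 9 genes described here were taken by name from a table of 25102 genes: Tat, Hpd, Hgd, Gstz1 and Fah of the tyrosine route, and Tdo2, Kmo, Kynu and Haao of the tryptophan route. All 9 were found and all 9 were among the 8528 genes that entered the test, which required an average of 1 FPKM or more. FPKM divides the fragments on a gene by the gene's length and by all fragments mapped in that library, so levels of different genes can be set side by side. The 6 libraries were made from poly(A) RNA of livers of male C57BL/6J mice. In 3 of them, DEN+CCl4 replicates 1 to 3, diethylnitrosamine (DEN) had been injected once at 1 mg/kg at 2 weeks of age. Carbon tetrachloride (CCl4) had followed about 6 weeks later, at 0.2 mL/kg, 2 times each week and for no more than 14 weeks. The other 3, control replicates 1 to 3, came from the same cohort of 2-week-old mice. The labels give no injection for the controls, and neither group's age at the time of sampling. DEN is a carcinogen that hepatocytes activate, CCl4 injures hepatocytes, and the combination is used as a mouse model of hepatocellular carcinoma. Whether a treated library came from tumour, from the liver around it or from both is not given in the labels.

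Of the tyrosine enzymes, Tat moves its amino group to 2-oxoglutarate, Hpd turns the product into homogentisate, Hgd opens the aromatic ring, Gstz1 isomerises maleylacetoacetate, and Fah cleaves fumarylacetoacetate to fumarate and acetoacetate. Inherited loss of FAH causes tyrosinemia type I in humans, in which the toxic product of the step before it injures the liver, and blocking HPD is its treatment. Tryptophan enters the kynurenine route through Tdo2, the liver's tryptophan dioxygenase. Kmo hydroxylates kynurenine at the outer mitochondrial membrane, Kynu cleaves off alanine, and Haao makes the precursor of quinolinate, from which NAD can be formed. Tat and Tdo2 are textbook examples of liver genes induced by glucocorticoids.

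The 9 genes lie on 9 different chromosomes. In GENCODE M21 on the GRCm38 build, Tat spans chr8:109990437-109999803 on the plus strand, Hpd chr5:123171807-123182727 on the minus strand, and Hgd chr16:37580153-37632020 on the plus strand. Gstz1 spans chr12:87147165-87164723 on the plus strand and Fah chr7:84585159-84606722 on the minus strand. Of the tryptophan route, Tdo2 spans chr3:81957090-81976202 on the minus strand, Kmo chr1:175620381-175662116 and Kynu chr2:43555329-43682715 on the plus strand, and Haao chr17:83831156-83847963 on the minus strand. All are protein-coding. Of the 5088 exon bases of Gstz1, 465 overlap exons of Pomt2 and 156 exons of the antisense gene Gm6566, both on the opposite strand. Since the use of strand in counting is not stated, reads in the shared bases cannot be told apart. The other 8 genes have no overlapping exons of another gene.

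RefSeq promoter sequences on GRCm38.p6 were found for 8 of the 9 genes, with 2 starts for Gstz1. The 250 bases upstream of the start, read 5′ to 3′ on the gene's own strand, are shown for 4 genes. Hpd and Gstz1 differed most and least from controls in DEN+CCl4 replicate 3, and Hgd and Haao are shown because they hold the motif matches marked in capitals.
Hpd, chr5:123182724-123182973, minus strand: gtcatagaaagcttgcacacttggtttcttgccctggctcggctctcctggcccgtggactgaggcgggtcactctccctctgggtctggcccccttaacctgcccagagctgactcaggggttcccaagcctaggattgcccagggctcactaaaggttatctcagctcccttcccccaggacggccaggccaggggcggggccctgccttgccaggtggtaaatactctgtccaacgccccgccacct
Gstz1, chr12:87146915-87147164, plus strand: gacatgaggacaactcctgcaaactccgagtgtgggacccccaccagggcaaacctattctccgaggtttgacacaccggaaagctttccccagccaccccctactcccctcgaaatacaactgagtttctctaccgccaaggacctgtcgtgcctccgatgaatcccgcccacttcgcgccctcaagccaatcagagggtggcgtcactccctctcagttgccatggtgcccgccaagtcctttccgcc
Hgd, chr16:37579903-37580152, plus strand: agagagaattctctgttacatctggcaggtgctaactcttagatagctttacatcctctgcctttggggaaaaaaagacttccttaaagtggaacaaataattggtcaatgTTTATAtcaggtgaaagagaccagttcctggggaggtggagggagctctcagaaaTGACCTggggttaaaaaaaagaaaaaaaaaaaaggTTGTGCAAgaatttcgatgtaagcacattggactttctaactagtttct
Haao, chr17:83846791-83847040, minus strand: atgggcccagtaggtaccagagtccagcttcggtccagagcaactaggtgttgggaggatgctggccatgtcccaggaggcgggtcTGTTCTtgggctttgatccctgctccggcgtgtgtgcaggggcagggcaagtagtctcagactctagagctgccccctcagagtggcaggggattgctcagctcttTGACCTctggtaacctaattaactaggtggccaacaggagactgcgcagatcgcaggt
The capitals mark matches, on either strand, to short words searched in the windows. AGAACA, the core bound by the glucocorticoid receptor, was in 16.1% of all 32851 promoters of this length and, among the 9 windows of these genes, in that of Haao, read there as TGTTCT 159 to 164 bases upstream. AGGTCA, the core bound by many nuclear receptors, was in 14% of all promoters and in the windows of Haao, Hgd and Tdo2, read in each as TGACCT. The C/EBP word TTGCNNAA was in 9.56% of all promoters and in the window of Hgd, 42 to 49 bases upstream. TATAAA was in 12.4% of all promoters and in the windows of Hgd, read as TTTATA, and Tdo2. The FOXA core TGTTTAC (3.17% of all promoters) and the HNF1 word GTTAATNAT (0.737%) were in none of the 9 windows. The windows of Hpd, Tat, Fah, Kmo and both of Gstz1 held none of the 6 words. The RefSeq starts used here are not always the outermost: the windows of Tdo2, Haao, Fah, Kmo and the second of Gstz1 lie inside the gene as GENCODE annotates it, that of Tdo2 within its 5′ UTR. No overlap between matches occurred, a match is a description of letters, and a window without one says nothing of the factor.

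Both routes had lower mean levels in DEN+CCl4 livers than in controls, and for none of the 9 genes did the difference pass the test across all genes. With limma on log2(FPKM + 1) and Benjamini-Hochberg adjustment over the 8528 genes, 0 of the 9 were called lower and 0 higher at an adjusted p under 0.05. Of all tested genes 55, or 0.645%, were called lower and 71, or 0.833%, were called higher; these became 3 and 6 without mitochondrially encoded genes and 0 and 0 after median-ratio scaling. At an unadjusted p under 0.05, Tat and Hpd were the 2 of the 9 that lay lower, against 432 of all tested genes (5.07%), with 216 higher. Without DEN+CCl4 replicate 3, 0 of the 9 passed that unadjusted threshold, and 139 of all tested genes lay lower and 522 higher. The count was also 0 of the 9 with no filter, with quantile normalization and with array weights. It was 4 of the 9 without the trend option of limma, where 365 of all tested genes lay lower and 131 higher. Without DEN+CCl4 replicate 1 it was 6 of the 9, and 929 of all tested genes lay lower and 239 higher. All 9 log2 fold changes were negative, as were 6341 of the 8528 (74.4%). The median log2 fold change was -1.40 over the 9 genes, -1.75 over the 5 of the tyrosine route and -1.23 over the 4 of the tryptophan route, beside -0.27 over all tested genes. A log2 fold change here is the difference of the group means of log2(FPKM + 1), which understates the change of low genes.

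The 3 treated livers were unlike each other. In DEN+CCl4 replicate 1 the 9 genes differed from the control mean by a median of 0.06 on the log2 scale, in replicate 2 by -1.39 and in replicate 3 by -2.55. The same medians over all tested genes were 0.08, 0.17 and -1.06. DEN+CCl4 replicate 3 stood apart as a library: mitochondrially encoded genes took 64.2% of its FPKM, against 36.9% and 40.6% in the other treated libraries and 26.6% to 43.0% in controls, and its median tested gene was at 1.19 FPKM, against 3.43 to 4.46 in the other 5 libraries. It had 16447 genes above 0, against 19260 to 20634 in the others. For this reason the values were also taken after median-ratio scaling, in which a library's factor is the median over genes of its FPKM relative to the genes' geometric means and which places the median gene of all libraries at about the same level. After scaling, the medians of the 9 genes were -0.03, -1.57 and -1.07 in DEN+CCl4 replicates 1, 2 and 3, and those of all tested genes 0.00, 0.02 and -0.02. On both scales replicate 1 was near the controls and replicates 2 and 3 were below them. In whole liver, fewer hepatocytes and less of a transcript per hepatocyte cannot be told apart.

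**Figure D1:**
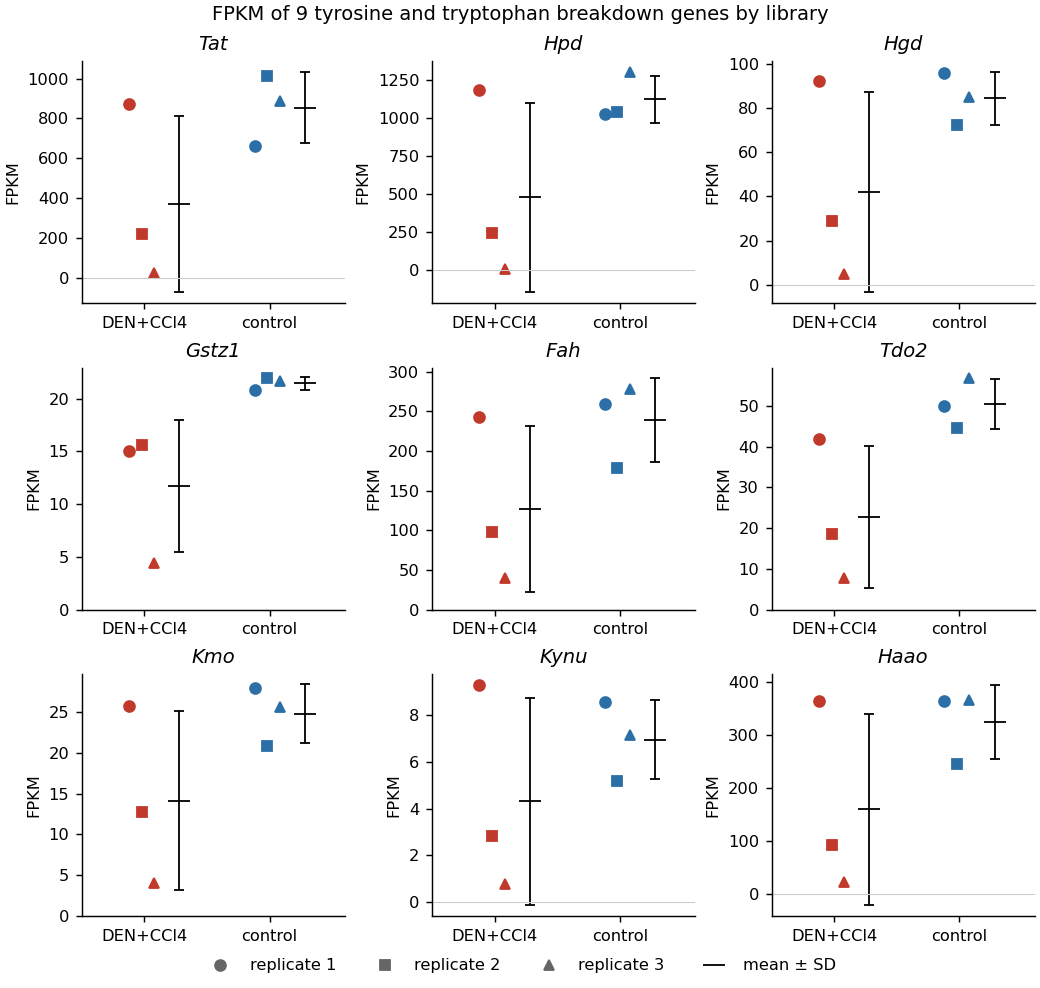
FPKM (y axis) of each of the 9 genes in every library, DEN+CCl4 on the left and control on the right of each panel. Points are libraries, with a shape for each replicate number, and the black bar is the mean with its SD (n = 3). For Gstz1 and Tdo2 all 3 DEN+CCl4 points lie below all 3 control points; for the other 7 genes DEN+CCl4 replicate 1 lies among or above the controls.

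Tat, the aminotransferase that starts tyrosine breakdown, was at 869.9, 221.5 and 21.95 FPKM across DEN+CCl4 replicates 1, 2 and 3, against 660.1, 1012 and 889.3 FPKM across control replicates 1, 2 and 3. DEN+CCl4 replicate 1 lay between controls, while replicates 2 and 3 lay below all of them, so the groups overlapped. The means were 371 ± 443 FPKM in DEN+CCl4 and 854 ± 178 FPKM in controls (SD, n = 3 each), a difference of -2.36 in log2 fold change (SE 1.06, limma adjusted p = 0.493). Without DEN+CCl4 replicate 1, Tat was at -3.56 with a limma adjusted p of 0.0203, the lowest over the alternatives, which reached 0.9998.

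Hpd, the dioxygenase that makes homogentisate, was the highest of the 9 genes in every library but the last treated one. It was at 1183, 240.5 and 4.97 FPKM across DEN+CCl4 replicates 1, 2 and 3, against 1024, 1038 and 1301 FPKM across control replicates 1, 2 and 3. The treated livers thus ran from a level inside the control range to a level 226-fold below the control mean, or 67.1-fold below it after median-ratio scaling. Replicate 2 was 4.66-fold below the control mean as deposited and 5.34-fold below after scaling. The means were 476 ± 623 FPKM in DEN+CCl4 and 1121 ± 156 FPKM in controls (SD, n = 3 each). The log2 fold change was -3.22 (SE 1.09, limma adjusted p = 0.134), the largest in size of the 9, and the groups overlapped. Without DEN+CCl4 replicate 1 it was -4.88 with a limma adjusted p of 0.000300, where the other alternatives reached up to 0.955, and in no other alternative analysis was Tat or Hpd called.

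Hgd, which opens the ring of homogentisate, was at 92.32, 28.79 and 4.73 FPKM across DEN+CCl4 replicates 1, 2 and 3, against 95.96, 72.13 and 84.78 FPKM across the controls. It followed the order of Tat and Hpd, with replicate 1 inside the control range and replicate 3 lowest. The log2 fold change was -1.75 (SE 0.96, limma adjusted p = 0.730). Fah, the last enzyme of the route, was at 243.2, 97.52 and 40.18 FPKM across DEN+CCl4 replicates 1, 2 and 3, against 259.4, 178.6 and 278.3 FPKM across the controls. Its log2 fold change was -1.24 (SE 1.04, limma adjusted p = 0.989), again with replicate 1 inside the control range. In replicate 3 the 2 enzymes lay apart on both scales. As deposited, Hgd was at -3.89 from the control mean on the log2 scale and Fah at -2.52. After scaling, Hgd was at -2.32 and Fah at -0.80.

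Gstz1, the isomerase between Hgd and Fah, was the exception in the tyrosine route. It was at 15.06, 15.59 and 4.46 FPKM across DEN+CCl4 replicates 1, 2 and 3, against 20.77, 21.92 and 21.67 FPKM across the controls, so that all 3 treated livers lay below all 3 controls. The controls were close together, at 21.5 ± 0.605 FPKM, and the treated libraries averaged 11.7 ± 6.28 FPKM (SD, n = 3 each). After median-ratio scaling the treated libraries were close together too, at 11.8, 11.4 and 12.5 scaled FPKM, against 17.8, 19.0 and 17.2 scaled FPKM in controls. On that scale they were -0.57, -0.62 and -0.49 from the control mean in log2, with SDs of 0.065 and 0.067 within the DEN+CCl4 and control groups. The difference did not pass the test across all genes, with a log2 fold change of -0.99 as deposited (SE 0.80, limma adjusted p = 0.984) and -0.56 after scaling (limma adjusted p = 0.514). Over all alternatives the limma adjusted p of Gstz1 ran between 0.271 and 0.9998. The exact two-sided permutation p was 0.1, the smallest that 3 against 3 libraries can give. The overlap of its exons with Pomt2 and Gm6566 limits how far fragments in the shared bases can be ascribed to Gstz1. The levels listed for the overlapping genes were Pomt2 at 0.23 to 1.21 FPKM and Gm6566 at 0.04 to 0.43 FPKM over the 6 libraries.

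Tdo2, the entry enzyme of the kynurenine route, was the other gene with no overlap between groups. It was at 41.93, 18.5 and 7.72 FPKM across DEN+CCl4 replicates 1, 2 and 3, against 49.86, 44.61 and 56.84 FPKM across the controls, means of 22.7 ± 17.5 and 50.4 ± 6.14 FPKM (SD, n = 3 each). After scaling, the treated libraries were at 32.9, 13.5 and 21.7 and the controls at 42.7, 38.6 and 45.1 scaled FPKM, again with no overlap. The log2 fold change of -1.40 (SE 0.91) had a limma adjusted p of 0.879 and an exact permutation p of 0.1. Gstz1 and Tdo2 were thus 2 of 9 genes with all treated libraries below all controls, a pattern that 5.35% of all tested genes had as deposited and 6.52% had after scaling.

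Kmo, the kynurenine hydroxylase, was at 25.7, 12.75 and 4.03 FPKM across DEN+CCl4 replicates 1, 2 and 3, against 27.94, 20.87 and 25.59 FPKM across the controls. Kynu, the kynureninase, was at 9.3, 2.85 and 0.79 FPKM across the DEN+CCl4 livers, against 8.56, 5.19 and 7.14 FPKM across the controls. For both, DEN+CCl4 replicate 1 was inside or above the control range and replicates 2 and 3 were below it. Their log2 fold changes were -1.06 (SE 0.82, limma adjusted p = 0.970) for Kmo and -0.92 (SE 0.62, limma adjusted p = 0.910) for Kynu, the smallest in size of the 9. Haao, the dioxygenase at the end of the shared trunk, was at 364.1, 92.49 and 21.53 FPKM across the DEN+CCl4 livers, against 363.8, 244.3 and 366.3 FPKM across the controls. Its log2 fold change of -1.81 (SE 1.05, limma adjusted p = 0.794) was the largest in size of the tryptophan genes among the 9. The groups overlapped through replicate 1. Exact permutation p-values of the members other than Gstz1 and Tdo2 lay between 0.2 and 0.4.

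**Figure D2:**
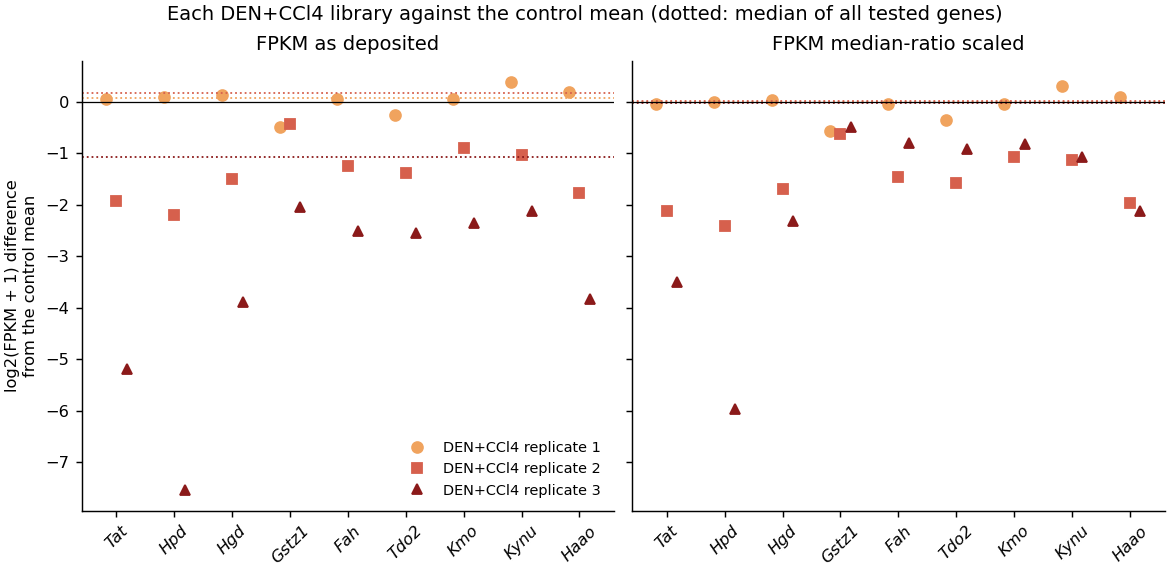
Difference of each DEN+CCl4 library from the control mean in log2(FPKM + 1) (y axis) for the 9 genes, as deposited (left) and after median-ratio scaling (right). Dotted lines are the median of all 8528 tested genes in the library of the same colour. Replicate 1 lies near 0 for most genes; in replicate 3 Hpd is lowest on both scales, and after scaling the 3 Gstz1 points lie between -0.49 and -0.62.

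The order of the 9 levels differed most in DEN+CCl4 replicate 3. In controls the mean level ran from Hpd down through Tat, Haao, Fah, Hgd, Tdo2, Kmo and Gstz1 to Kynu, and neighbours whose control ranges overlapped were Haao with Fah and Kmo with Gstz1. Tat ranked 2nd and Kynu 9th in all 6 libraries. Hpd ranked 1st in 5 libraries and 5th in DEN+CCl4 replicate 3, where Fah ranked 1st, Haao 3rd, Tdo2 4th, Hgd 6th, Gstz1 7th and Kmo 8th. In the other 5 libraries the changes were swaps of neighbours, Kmo with Gstz1 and, in DEN+CCl4 replicate 2, Haao with Fah.

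Shares within a library do not depend on its total. The 9 genes together summed to 2844, 730.5 and 110.4 FPKM across DEN+CCl4 replicates 1, 2 and 3, against 2511, 2637 and 3030 FPKM across the controls. Scaled, the sums were 2228, 532.5 and 309.8 in DEN+CCl4 and 2152, 2281 and 2407 in controls. On both scales DEN+CCl4 replicate 1 was inside the control range and replicates 2 and 3 were far below it. Hpd made up 41.6%, 32.9% and 4.50% of the sum in DEN+CCl4, against 40.8%, 39.4% and 42.9% in controls. Fah made up 8.55%, 13.4% and 36.4% in DEN+CCl4, against 10.3%, 6.77% and 9.18% in controls. In DEN+CCl4 replicate 3 the sum was thus led by the last enzyme of the tyrosine route, and in every other library by Hpd. Gstz1 made up 0.530%, 2.13% and 4.04% in DEN+CCl4, against 0.827%, 0.831% and 0.715% in controls. None of the 9 shares reached an exact two-sided permutation p of 0.1, the smallest possible, which itself could not have passed the threshold of 0.05. The p-values of this test adjusted over the 9 were 0.45 for 8 genes and 0.6 for Tat.

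**Figure D3:**
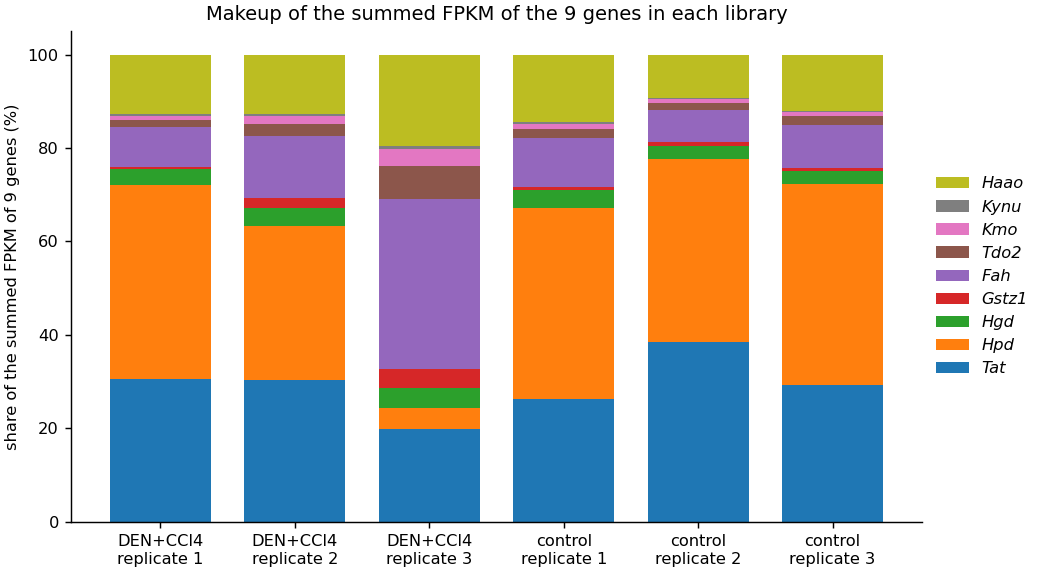
Share of each gene in the summed FPKM of the 9 genes (y axis, percent), stacked for the 3 DEN+CCl4 libraries (left) and the 3 control libraries (right). Hpd and Tat make up most of the bar in 5 libraries, and in DEN+CCl4 replicate 3 Hpd is at 4.50% and Fah at 36.4%.

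Ratios of neighbouring enzymes, log2((FPKM of the later enzyme + 1)/(FPKM of the earlier enzyme + 1)), were compared within each library. Of 7 ratios, 2 separated the groups. Haao to Kynu was 5.15, 4.60 and 3.65 in DEN+CCl4 replicates 1, 2 and 3, against 5.25, 5.31 and 5.50 in controls, a mean difference of -0.89. Kmo to Tdo2 was -0.69, -0.50 and -0.79 in DEN+CCl4, against -0.81, -1.06 and -1.12 in controls, a mean difference of 0.34. Both had an exact two-sided permutation p of 0.1, the smallest possible, and 0.35 after adjustment over the 7 ratios. The gap in Haao to Kynu narrowed to -0.58 with a pseudocount of 0.1 FPKM and that in Kmo to Tdo2 was 0.31, with exact permutation p-values of 0.1 for Haao to Kynu and 0.2 for Kmo to Tdo2, so that the groups then overlapped for Kmo to Tdo2. The other 5 ratios overlapped, with exact permutation p-values between 0.2 and 0.6. Hpd to Tat was 0.44, 0.12 and -1.94 in DEN+CCl4, against 0.63, 0.04 and 0.55 in controls. Hgd to Hpd was -3.67, -3.02 and -0.06 in DEN+CCl4, against -3.40, -3.83 and -3.92 in controls. In both ratios DEN+CCl4 replicate 3 lay farthest from the controls.

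**Figure D4:**
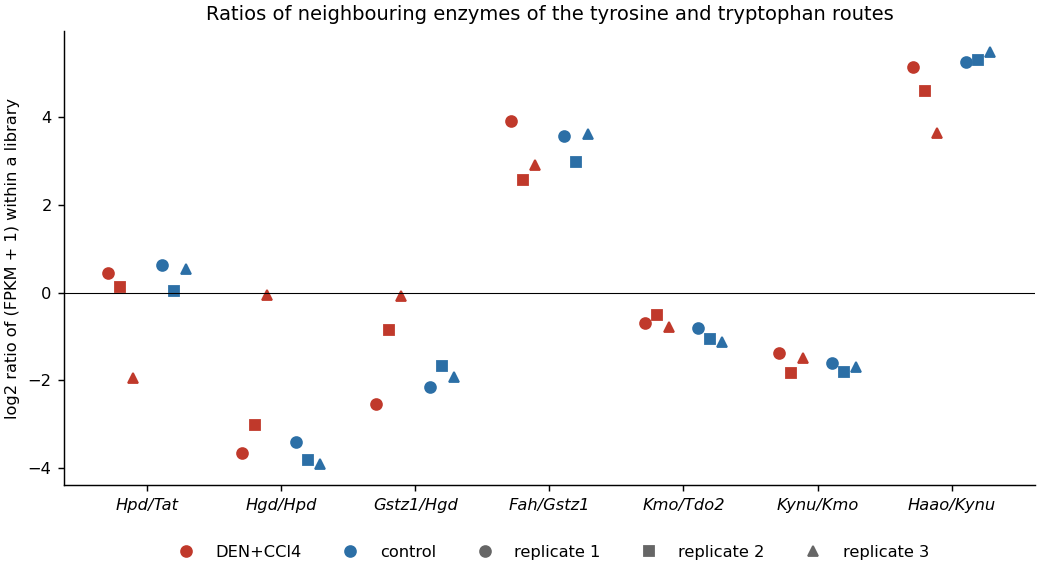
Log2 ratio of (FPKM + 1) of neighbouring enzymes within each library (y axis), DEN+CCl4 to the left of control for each pair, with a shape for each replicate number. All DEN+CCl4 points lie above the controls for Kmo/Tdo2 and below them for Haao/Kynu; in the other 5 pairs the groups overlap.

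Of 15 further genes of tryptophan breakdown and NAD synthesis 14 were in the table and 13 were tested. Of these 0 were called in either direction, with a median log2 fold change of -0.67. Without DEN+CCl4 replicate 1, 2 were called lower, as were 270 of all 8528 tested genes. Kyat1, a kynurenine aminotransferase that makes kynurenic acid, was at 86.1, 279 and 27.8 FPKM across the DEN+CCl4 livers, against 76.2, 67.7 and 64.0 FPKM across the controls, or 0.34 in log2 fold change (limma adjusted p = 0.996). It was highest in DEN+CCl4 replicate 2, and without that library its log2 fold change was -0.49 on the deposited scale. After median-ratio scaling it was at 67.5, 203.6 and 77.9 scaled FPKM across the DEN+CCl4 livers and 65.3, 58.5 and 50.9 across the controls, with no overlap. On that scale 7.63% of all tested genes had all treated libraries above all controls. The scaled log2 fold change of Kyat1 was 0.81 (limma adjusted p = 0.594, and 0.432 to 0.9998 over the alternatives). Gcdh, which acts on the glutaryl-CoA made from tryptophan and lysine, was at 63.7, 29.5 and 4.53 FPKM across the DEN+CCl4 livers, against 92.4, 87.7 and 101 FPKM across the controls. These groups did not overlap, with treated libraries below controls as in 5.35% of all tested genes. The log2 fold change of Gcdh was -2.09 (limma adjusted p = 0.519). Ido1, the tryptophan dioxygenase of other tissues and of immune cells, was listed at 0 in all 3 controls and in DEN+CCl4 replicates 1 and 2, and at 0.14 FPKM in replicate 3.

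Other breakdown of amino acids in hepatocytes was measured by 16 genes, of which 0 were called. All 16 lay on the negative side, as did 74.4% of all tested genes, with a median log2 fold change of -1.18. Without DEN+CCl4 replicate 1, 3 of the 16 were called lower, as were 270 of all 8528 tested genes. Among the 3 was Sds at -3.63 (limma adjusted p = 0.0159, and up to 0.9998 over the alternatives). Sds, the serine dehydratase, was at 620.4, 126.4 and 4.19 FPKM across the DEN+CCl4 livers, against 274, 369.8 and 313.5 FPKM across the controls. Its treated libraries lay on both sides of the controls, and its log2 fold change was -2.10 (limma adjusted p = 0.666). Cdo1, the cysteine dioxygenase, was at 433.5, 149.9 and 84.89 FPKM across the DEN+CCl4 livers, against 542.3, 423.6 and 581 FPKM across the controls (log2 fold change -1.53, limma adjusted p = 0.934). Among carriers of aromatic amino acids 3 of 8 were tested and 0 called, with a median log2 fold change of -0.40. Slc16a10, a carrier of aromatic amino acids across the plasma membrane, was at 7.76, 1.5 and 0.17 FPKM across the DEN+CCl4 livers, against 9.28, 5.41 and 8.68 FPKM across the controls (log2 fold change -1.55, limma adjusted p = 0.268). Slc3a2, the shared heavy chain of several carriers, was at -0.14 (limma adjusted p = 0.996), and its sign turned with median-ratio scaling. Without DEN+CCl4 replicate 1, 1 carrier was called lower, Slc16a10 at -2.33 (limma adjusted p = 0.0159; up to 0.9998 over the alternatives).

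Regulators known to act on liver genes of this kind, and their targets, were looked at next. Of 12 genes of the glucocorticoid receptor and its liver targets 0 were called, with a median log2 fold change of -0.75. Without DEN+CCl4 replicate 1, 1 was called lower, as were 270 of all 8528 tested genes. Pck1, a gluconeogenic enzyme, was at 842.5, 333.5 and 27.21 FPKM across the DEN+CCl4 livers, against 583.9, 963.6 and 744.8 FPKM across the controls. Tat had the same order of treated libraries, as did genes outside this list such as Sds, Cdo1 and Gcdh. The log2 fold change of Pck1 was -1.91 (limma adjusted p = 0.737), and that of the metallothionein Mt1 was -1.67 (limma adjusted p = 0.855). Of the liver-enriched transcription factors 10 were tested and 0 called. Without DEN+CCl4 replicate 1, 1 of them was called lower. With array weights 1 was called higher, as were 287 of all tested genes. The median log2 fold change of these factors was -0.31 as deposited, close to that of all genes. After scaling, their medians were 0.10, 0.07 and -0.80 in DEN+CCl4 replicates 1, 2 and 3, beside 0.00, 0.02 and -0.02 over all tested genes. Hnf4a was at 100.4, 119.8 and 22.14 FPKM across the DEN+CCl4 livers, against 55.26, 89.66 and 89.38 FPKM across the controls, a log2 fold change of -0.23 as deposited and 0.23 after scaling. Cebpa was at -1.25 (limma adjusted p = 0.955).

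Kynurenine and kynurenic acid are ligands of the aryl hydrocarbon receptor, and of 4 tested genes of this receptor and its targets 1 was called lower and 0 higher. Cyp1a2, a cytochrome P450 of hepatocytes, was at 180, 10.8 and 0.9 FPKM across DEN+CCl4 replicates 1, 2 and 3, against 238, 121 and 258 FPKM across the controls. Replicate 1 lay inside the control range and the other treated libraries below it. Cyp1a2 fell by 3.62 on the log2 scale (SE 1.00, limma adjusted p = 0.0305), a call that held in 2 of 18 alternatives, the filter at 5 FPKM and the analysis without DEN+CCl4 replicate 1. After median-ratio scaling its log2 fold change was -3.32 with a limma adjusted p of 0.454, and over the 18 alternatives that p ran between 8.81e-06 and 0.914. Nqo1, another target of the receptor, was at 2.23, 4.2 and 4.17 FPKM across the DEN+CCl4 livers, against 2.02, 1.68 and 2.88 FPKM across the controls (log2 fold change 0.49, limma adjusted p = 0.996). The median of the 4 genes was -0.50.

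**Figure D5:**
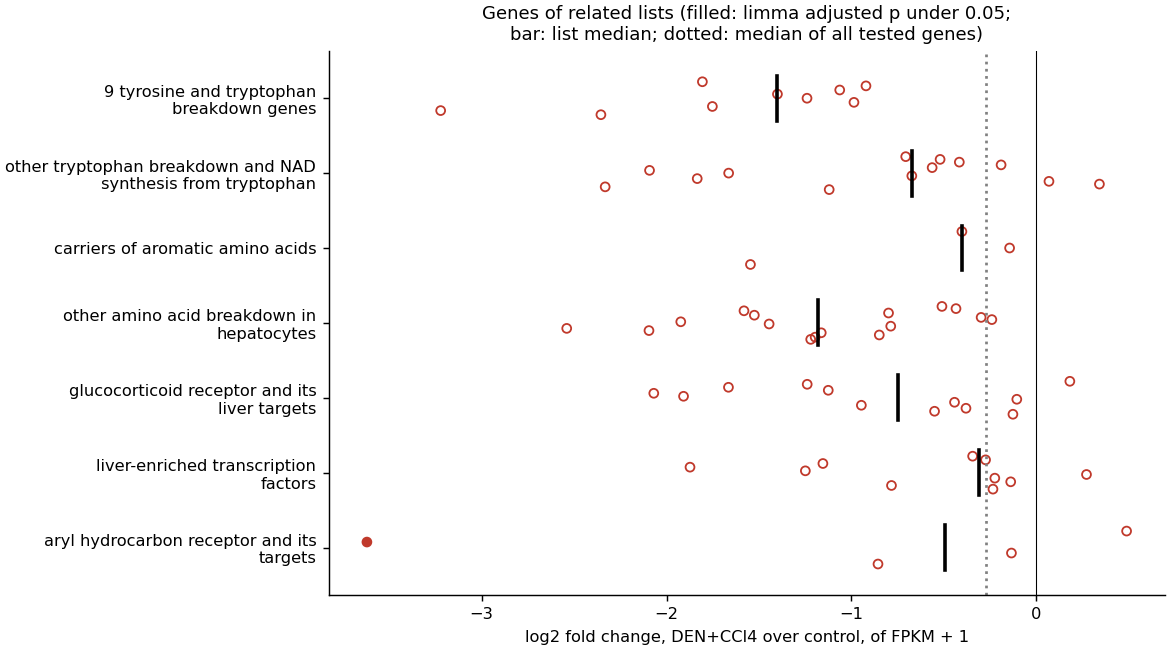
Log2 fold change of FPKM + 1, DEN+CCl4 over control (x axis), of every tested gene of the 9 and of 6 related lists. Black bars are list medians, the dotted line is the median of all tested genes (-0.27), and a filled point passed a limma adjusted p of 0.05. Cyp1a2 is the 1 filled point, and the 9 genes have the lowest median at -1.40.

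Markers of the cells in the liver were set beside these values. Hepatocyte markers, 9 in the table with Alb and Apoa1 the highest, summed to 12938 to 64495 FPKM in DEN+CCl4 and 30465 to 47801 FPKM in controls. After scaling the sums were 24506 to 47017 in DEN+CCl4 and 26343 to 37966 in controls. Alb and Apoa1 made up most of each sum, so it says little of the other markers. Of the 9 hepatocyte markers 7 had negative log2 fold changes, as had 74.4% of all tested genes, and 0 were called. In DEN+CCl4 replicate 3, Alb was at 21003 scaled FPKM, against 11891 to 18709 in controls. In the same library the urea-cycle enzymes Ass1 and Cps1 were at 76.9 and 36.2 scaled FPKM, against 380 to 539.7 and 96.5 to 104.7 in controls, and the plasma carrier Ttr was at 614.6, against 2500 to 4801 in controls. Fgb and Apoa1 were above the controls there, at 766 and 11541 scaled FPKM, against 144.5 to 397 and 9190 to 10444. Apob, Hnf4a and Serpina1c lay inside the control range. Hepatocyte markers thus lay on both sides of the control range in that library. The median scaled log2 difference of the 9 markers was 0.04, -0.14 and -0.04 in DEN+CCl4 replicates 1, 2 and 3. Markers of stellate cells and myofibroblasts, led by Acta2 and Dcn, summed to 16.0 to 40.0 FPKM in DEN+CCl4 and 9.35 to 13.7 FPKM in controls, with 6 of 10 tested, all 6 with positive log2 fold changes and 0 called. Ductular markers, led by Spp1 and Krt19, summed to 14.7 to 34.2 FPKM in DEN+CCl4 and 9.26 to 16.5 FPKM in controls, with 0 of 2 tested called. Macrophage markers, led by C1qa and C1qb, summed to 48.0 to 128 FPKM in DEN+CCl4 and 71.0 to 187 FPKM in controls. Endothelial markers, led by Clec4g and Stab2, summed to 7.09 to 22.2 FPKM in DEN+CCl4 and 10.2 to 18.8 FPKM in controls. Lymphocyte markers, led by Cd79a and Nkg7, summed to 4.96 to 8.07 FPKM in DEN+CCl4 and 4.23 to 5.47 FPKM in controls. After scaling, the stellate cell sums were 17.55 to 44.8 in DEN+CCl4 and 8.085 to 11.4 in controls. Ductular sums were then 11.5 to 71.3 and 7.355 to 14.15, and macrophage sums 58.3 to 134.6 and 56.4 to 160.1. Endothelial sums were 13.5 to 19.9 and 8.06 to 16.3, and lymphocyte sums 5.33 to 13.9 and 3.63 to 4.73. In each of these scaled sums DEN+CCl4 replicate 3 was the highest treated library. Of the macrophage, endothelial and lymphocyte markers 0 were called. No marker was listed at 0 throughout a group. The part of these cells, and of the mitochondrial share of DEN+CCl4 replicate 3, in the levels of the 9 genes was not tested.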

How the data were processed

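Per the labels' protocols, libraries were built with a SMARTER kit on poly(A) RNA, starting at 5 ug total RNA whose RIN exceeded 7. The authors deposited 1 table of FPKM with a column for each of the 6 libraries, per the file headers. HISAT, StringTie and the GRCm38 build are named in the submitters' processing notes; versions, settings and strandedness of counting: not given in the sources used here. Because FPKM is relative to the library total, all other values are pulled down wherever a few genes dominate. No counts could be recovered: at best 30.3% to 34.6% of low values per library lay within 0.1 of a whole multiple of a common step, against 20% by chance. Depth is therefore unknown, and no counting interval is given.

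Groups were taken from the labels, which identify no animals apart from replicate numbers; p-values therefore measure only the spread among these samples, which may be technical. The test was limma 3.58.1 in R 4.3.3 on log2(FPKM + 1) (two-sided, with eBayes and its trend option and without covariates), for genes averaging 1 FPKM or more, with Benjamini-Hochberg adjustment over 8528 genes and a threshold of 0.05. The fit was tested on simulated data. For shares, ratios and single genes the 3 against 3 libraries were compared by an exact permutation test (two-sided), whose smallest p is 0.1 and which therefore cannot pass the threshold. Other steps ran in Python 3.11.15 (numpy 2.4.6; pandas 2.3.3; matplotlib 3.10.9). The labels do not say that the replicate numbers pair animals, so the numbers were not used as pairs in the main test. The 18 alternatives covered pseudocounts, filters, scalings, limma options, a block and leaving out each library.

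The 9 genes and the lists beside them were chosen with earlier results of these data known. Named were the 9 genes, the genes past the threshold in each list, and where fewer than 2 passed, the 2 with the highest mean; in cell type lists, the 2 with the highest mean. Ido1, Afmid, Pomt2, Gm6566, Ttr, Ass1, Cps1, Fgb, Apob and Serpina1c were named outside this rule, after their values or positions were seen. The result of 1 further list is not reported here.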

Additional observations from a re-analysis of the deposited data

How the results depend on the processing

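Calls across all genes depended on most choices. The 71 genes called higher and 55 called lower by limma became 6 and 3 with a pseudocount of 0.1, 4 and 0 with 0.01, and 0 and 0 with no filter, with median-ratio scaling (alone or also without DEN+CCl4 replicate 3), with quantile normalization and without the trend. At an unadjusted p under 0.05, those settings with no call had 540 higher and 568 lower (no filter), 468 and 446 (median-ratio scaling), 354 and 226 (scaling without DEN+CCl4 replicate 3), 413 and 416 (quantile) and 131 and 365 (no trend). A filter at 5 FPKM gave 14 higher and 53 lower, TPM 37 and 29, and leaving out mitochondrially encoded genes 6 and 3. Array weights gave 287 and 134, with weights of 3.58, 0.422 and 0.0621 for DEN+CCl4 replicates 1, 2 and 3 and 1.5, 0.634 and 11.2 for the controls, so that result rests mostly on DEN+CCl4 replicate 1 and control replicate 3. Leaving out a library gave 0 to 109 higher and 0 to 270 lower, with 0 and 0 without DEN+CCl4 replicate 3 and 109 and 270 without replicate 1.

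Of the 9 genes, 0 were called under any alternative except without DEN+CCl4 replicate 1, which called 2 lower (0 to 2 when a library was left out). Their median log2 fold change stayed negative and ran from -1.97 (without DEN+CCl4 replicate 1) to -0.28 (array weights); it was -0.95 with median-ratio scaling, where that of all genes was 0.01, and -0.68 without DEN+CCl4 replicate 3. With array weights Kynu turned to 0.15, Sds to 0.65, Mt1 to 0.63 and Nqo1 to -0.12. Slc3a2 turned to 0.22 with median-ratio scaling, 0.017 without mitochondrially encoded genes, 0.23 with quantile normalization, 0.18 with array weights, 0.45 without DEN+CCl4 replicate 3 and 0.31 without it and scaled, and ran from -0.51 to 0.45 as libraries were left out. Hnf4a turned to 0.23, 0.54, 0.24, 0.52 and 0.37 with scaling, quantile normalization, array weights, without DEN+CCl4 replicate 3, and without it and scaled, and ran from -0.67 to 0.52 as libraries were left out. Kyat1 turned to -0.49 without DEN+CCl4 replicate 2 and was at 1.16 without replicate 3. The Kynu to Kmo ratio turned to -0.10 with a pseudocount of 0.1. The cause of these turns was not tested.

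The labels do not say whether the replicate numbers pair the libraries. Deviations of same-numbered libraries correlated at 0.07, 0.42 and -0.15 for numbers 1, 2 and 3, and those of differently numbered libraries at -0.37 to 0.23. With 3 libraries in each group, deviations from the group mean depend on each other, so these correlations cannot decide whether libraries were paired. With the replicate block 62 genes were called higher and 32 lower, and 0 of the 9. Unknown depth limits what can be said of low values such as Hpd in DEN+CCl4 replicate 3.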
